A study of Mus musculus with 4 samples.

Results

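Isolated seminiferous tubules were compared with whole testis in adult XX/Sry male mice, on 2 of the 4 arrays of the series. The members are the probe sets, short sets of oligonucleotides that each report 1 transcript, and the measure is the log2 ratio of the tubule signal over the whole testis signal. Control probe sets were set aside, and a probe set was kept where the brighter of both arrays was at or above the median signal of its array. This kept 12197 of 22626 probe sets (53.9%), which stood for 7305 of 12393 genes when each gene was given by its brightest probe set. There was 1 array per group and no replicate, so every fold is a ratio of single arrays, no gene has an error or a p-value, and that single array a side sets the precision.

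XX/Sry males are chromosomally female mice in which the testis-determining gene Sry has led to testes; the labels name neither the strain nor the construct. The other 2 arrays hold whole testis and tubules of adult W/Wv males, a cross of WB with B6 with mutant alleles of the receptor kinase gene Kit, and serve as context only. Germ cells are nearly lacking in the testes of both genotypes. Tubules were freed by stripping the tunica and a collagenase digest (5 mg/ml, 40 min, 37 °C), and a 70 µm strainer held them back while loose interstitial cells were rinsed away. The labels do not say whether both preparations came from the same animals or how many animals were pooled.

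A testis has 2 compartments. Inside the seminiferous tubules, Sertoli cells nurse the germ cells, make inhibin and a fluid rich in carrier proteins, and seal the epithelium with tight junctions; contractile peritubular myoid cells and a basement membrane wrap the tubule. In the interstitium between tubules, Leydig cells turn cholesterol into testosterone, and macrophages, blood vessels and collagen-making fibroblasts lie around them. Whole testis holds both compartments, and isolated tubules should hold mainly the first. In such bulk samples fewer cells of a type and less RNA per cell cannot be told apart, and a signal is relative to all other RNA on the array, since each array had been scaled to a common mean.

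Median signals were 158.9 (XX/Sry tubules) and 171.8 (XX/Sry whole testis). A background bound was taken as the brightest of 27 control probe sets for bacterial genes, at 61 and 63.9, and 69.8% and 71.4% of probe sets exceeded it. Xist, expressed from an inactive X chromosome, had signals of 1002 and 3099 in XX/Sry tubules and whole testis and of 76.7 and 130.6 in W/Wv, and the Y chromosome gene Eif2s3y had 28.2 and 9.5 against 580.3 and 794.7, so these arrays matched their genotype labels. As a sign of RNA quality, Gapdh control probe sets gave a 3′/5′ ratio of 0.930 for XX/Sry tubules against 0.733 for whole testis, and actin control probe sets 1.85 against 1.41; the part of this difference in the results was not tested.

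Among kept genes, 376 of 7305 were at least 2-fold higher in tubules (5.15%), 604 were at least 2-fold lower (8.27%) and 6325 were neither. A fold of 2 is the study's own rule, which it set for differences between the males of both genotypes. Of the genes past it, 38.4% were higher. Centring the arrays on their medians added 0.11 to every log2 ratio, gave 532 higher and 495 lower genes and so moved this share to 51.8%, while quantile normalisation gave 389 and 561 (40.9%). The median over all genes moved from -0.02 to 0.10 with it, so list medians below are read relative to that of all genes, and those of the lymphocyte, niche factor, protease and spermatid lists changed sign between scalings. In probe sets the counts were 663 higher (5.44%) and 1040 lower (8.53%). Plaa stood just inside the threshold on the higher side (2.000-fold) and Galnt2 just outside it (1.996-fold); on the lower side these were Nfat5 (2.000-fold) and Slc47a1 (1.999-fold).

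**Figure D1:**
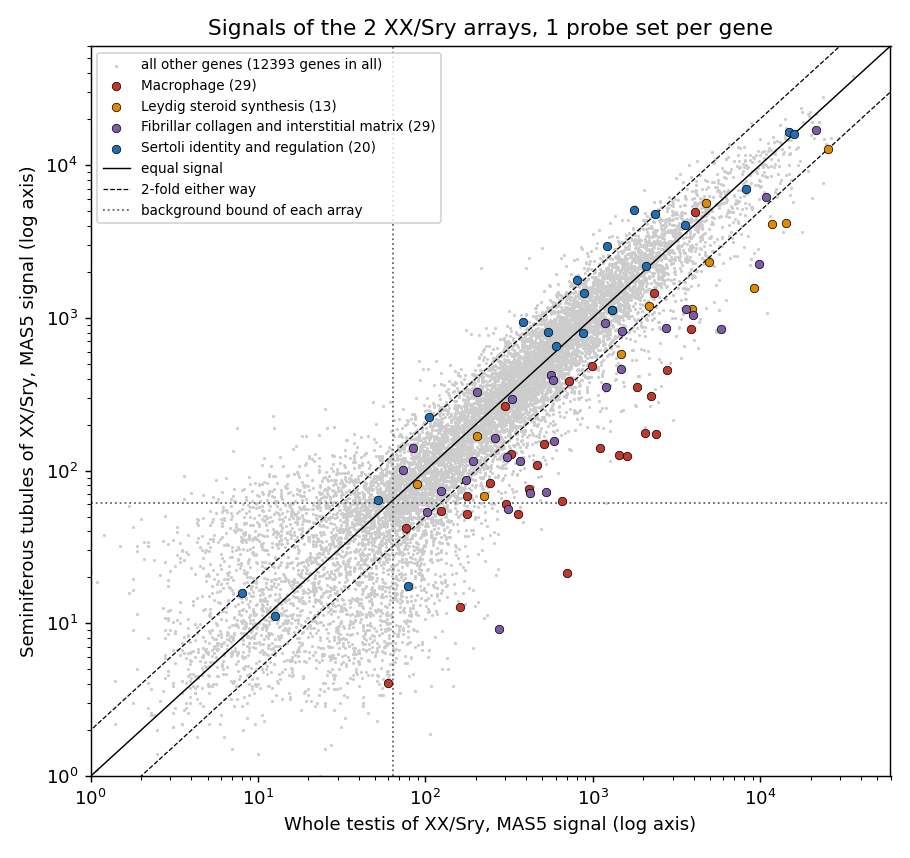
Signal in XX/Sry tubules (vertical) against XX/Sry whole testis (horizontal), both log axes, 1 point per gene, 1 array a side. Coloured points are 4 gene lists; most macrophage, steroid synthesis and matrix genes lie below the line of equal signal, many past the dashed 2-fold line, whereas most Sertoli identity genes above the background bounds (dotted) lie near or above equal signal.

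The lower side held the larger differences. By the deposited ratio it had 134 genes past 4-fold, against 25 on the higher side, and 549 of its 604 genes were above the bound on both arrays, as were 357 of the 376 higher genes. Where a gene had several kept probe sets, all of them pointed down for 138 of 150 lower genes (92%) and all passed 2-fold for 85 (56.7%). On the higher side, all pointed up for 126 of 149 genes (84.6%) but all passed 2-fold for only 22 (14.8%). These counts include the probe set that made the call, which agrees by construction. No such share was computed over all genes, so the counts are no independent check of direction. The higher genes also lay nearer to the threshold, with a median log2 ratio of 1.20 against -1.43.

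Where the dimmer signal of a pair lay below the bound of its array, only a lower limit of the fold is given, the brighter signal divided by the larger of both bounds. Over all 12393 genes, with no filter, 402 (3.24%) were at least 2-fold higher and 724 (5.84%) at least 2-fold lower by a measured fold or such a bound. Counts for gene lists below use this rule over every measured member, and those 2 shares are their background. The 35 lists name 805 symbols, of which 698 were measured.

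Leydig cell genes of steroid synthesis were lower in tubules. Of 13 members measured, 8 were at least 2-fold lower, 0 were higher and 5 were neither; 12 of 13 passed the signal filter, and the median log2 ratio was -1.10 against -0.02 over all genes. Cyp11a1 on chromosome 9, the mitochondrial enzyme that starts steroid synthesis by cutting the side chain of cholesterol, had a signal of 1566 in tubules and 9195 in whole testis and was 5.87-fold lower. Hsd3b1, the next enzyme of the path, had 4172 and 14284 and was 3.42-fold lower. Fdx1, the ferredoxin that passes electrons to Cyp11a1, had 4111 and 11775 and was 2.86-fold lower. Cyp17a1, which makes the androgen precursor androstenedione, had 12622 and 25437, a difference of 2.02-fold at the edge of the threshold. The members of this path thus differed among themselves, from 2.02-fold to 5.87-fold among these 4.

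Of the other members past 2-fold, chosen here after their values were seen, Hsd17b3, the last enzyme of testosterone synthesis, had 1139.8 in tubules and 3895 in whole testis and was 3.42-fold lower. Akr1c14, a steroid reductase, had 68 and 225 and was 3.31-fold lower. Tspo, a mitochondrial membrane protein of steroid-making cells, had 576 and 1479.7 and was 2.57-fold lower, and Star, which carries cholesterol into mitochondria, had 2321 and 4974 and was 2.14-fold lower. The probe sets of Star and of Tspo, 3 each, reached up to log2 ratios of 0.13 and -0.26, so the size for these 2 genes depended on the probe set. Scarb1, the lipoprotein receptor that takes up cholesterol, was the only member above 0, with 5652 in tubules and 4736 in whole testis (log2 ratio 0.26, and above 0 on all of its 3 probe sets).

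The list's summed signal was 34796 in tubules and 79751 in whole testis. Each of the 13 members lay above the background bound on both arrays, so transcripts of this path were also measured in the isolated tubules. Among Leydig receptors and secreted products, 10 members had a median of -0.36, with 2 lower and 1 higher. The growth factor gene Igf1 was 6.92-fold lower (340 and 2354), and its 3 probe sets lay between -2.79 and -1.19. Vcam1, an adhesion molecule of Leydig cells, had 2281 and 5968 and was 2.62-fold lower, and Agt, the angiotensin precursor, had 8688 and 14816, 1.71-fold lower. Nr0b1, a nuclear receptor that Sertoli cells also make, was the higher member at 2.02-fold (4772 and 2365).

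The macrophage list had the lowest median of the 35 lists, at -2.33. Of its 29 measured members, 22 were at least 2-fold lower by a measured fold or a bound, 0 were higher, and 28 of 29 had a ratio below 0; by the deposited ratio alone 24 were lower and 0 higher, where 13.8% and 9.1% of all genes were. The summed signal was 11210 in tubules and 32425 in whole testis. C1qa, a chain of complement C1q on chromosome 4, had a signal of 174.7 in tubules and 2392 in whole testis, 13.7-fold lower. Csf1r, the receptor that keeps macrophages alive, had 849 and 3876 and was 4.56-fold lower, with all 3 probe sets between -2.23 and -2.06. Lyz2, the lysozyme of myeloid cells, had 453 and 2776 and was 6.13-fold lower. Ms4a7, a membrane protein of macrophages, lay below the bound in tubules (21.3) against 699 in whole testis and was at least 10.9-fold lower.

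The exception was Lgmn, a lysosomal protease that other cells make too, with 4947 in tubules and 4050 in whole testis (log2 ratio 0.29). Other members of the list among the 15 with the lowest ratios of all kept genes were the chemokine gene Pf4 (125 and 1605, 12.8-fold lower) and the coagulation factor gene F13a1 (175 and 2041, 11.7-fold). Besides C1qa, Ms4a7, Pf4 and F13a1, those 15 were Mfap4, Nr1h3, Cyp4f15, Dpt, Cbr2, Cd209g, Gstt3, Rnase4, Ifi27l2a, Ibsp and Cebpa, none of them on the macrophage list. Cd209g, a lectin, was at least 3.08-fold lower (13 and 197.1). Rnase4, a secreted ribonuclease, had 213.6 and 2994 and was 14.0-fold lower, and Cbr2, a carbonyl reductase, had 60.9 and 1206, at least 18.9-fold. Cebpa, a transcription factor of myeloid and fat cells, had 41.4 and 490 and was at least 7.67-fold lower.

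Other immune lists did not share this size of difference. Antigen presentation genes had a median of -0.43 over 12 members although their summed signal was higher in tubules (18702 and 16885), with 1 lower, H2-Ab1 of MHC class II (173 and 388, 2.24-fold), and 1 higher, the peptide transporter gene Tap1 (340 and 137, 2.48-fold, though its 4 probe sets ran from -1.24 to 1.43). H2-Aa, the other chain of the same class II molecule, differed little (1097 and 1034, 1.06-fold). The class I genes H2-K1 and H2-D1 had log2 ratios of 0.83 and 0.89, but their probe sets reached down to -0.74 and -2.58, and near-identical relatives make them uncertain. B2m, the light chain shared by class I molecules, had the opposite sign at -0.76 (4319 and 7319). Lymphocyte markers lay near background, with 8 of 16 below the bound on both arrays and 1, Ptprc, past the filter (108 and 180, 1.66-fold lower). Of 11 mast cell genes 0 passed 2-fold, 5 lay below the bound on both arrays, and Hdc, which makes histamine, had 1360 and 982 (log2 ratio 0.47).

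**Figure D2:**
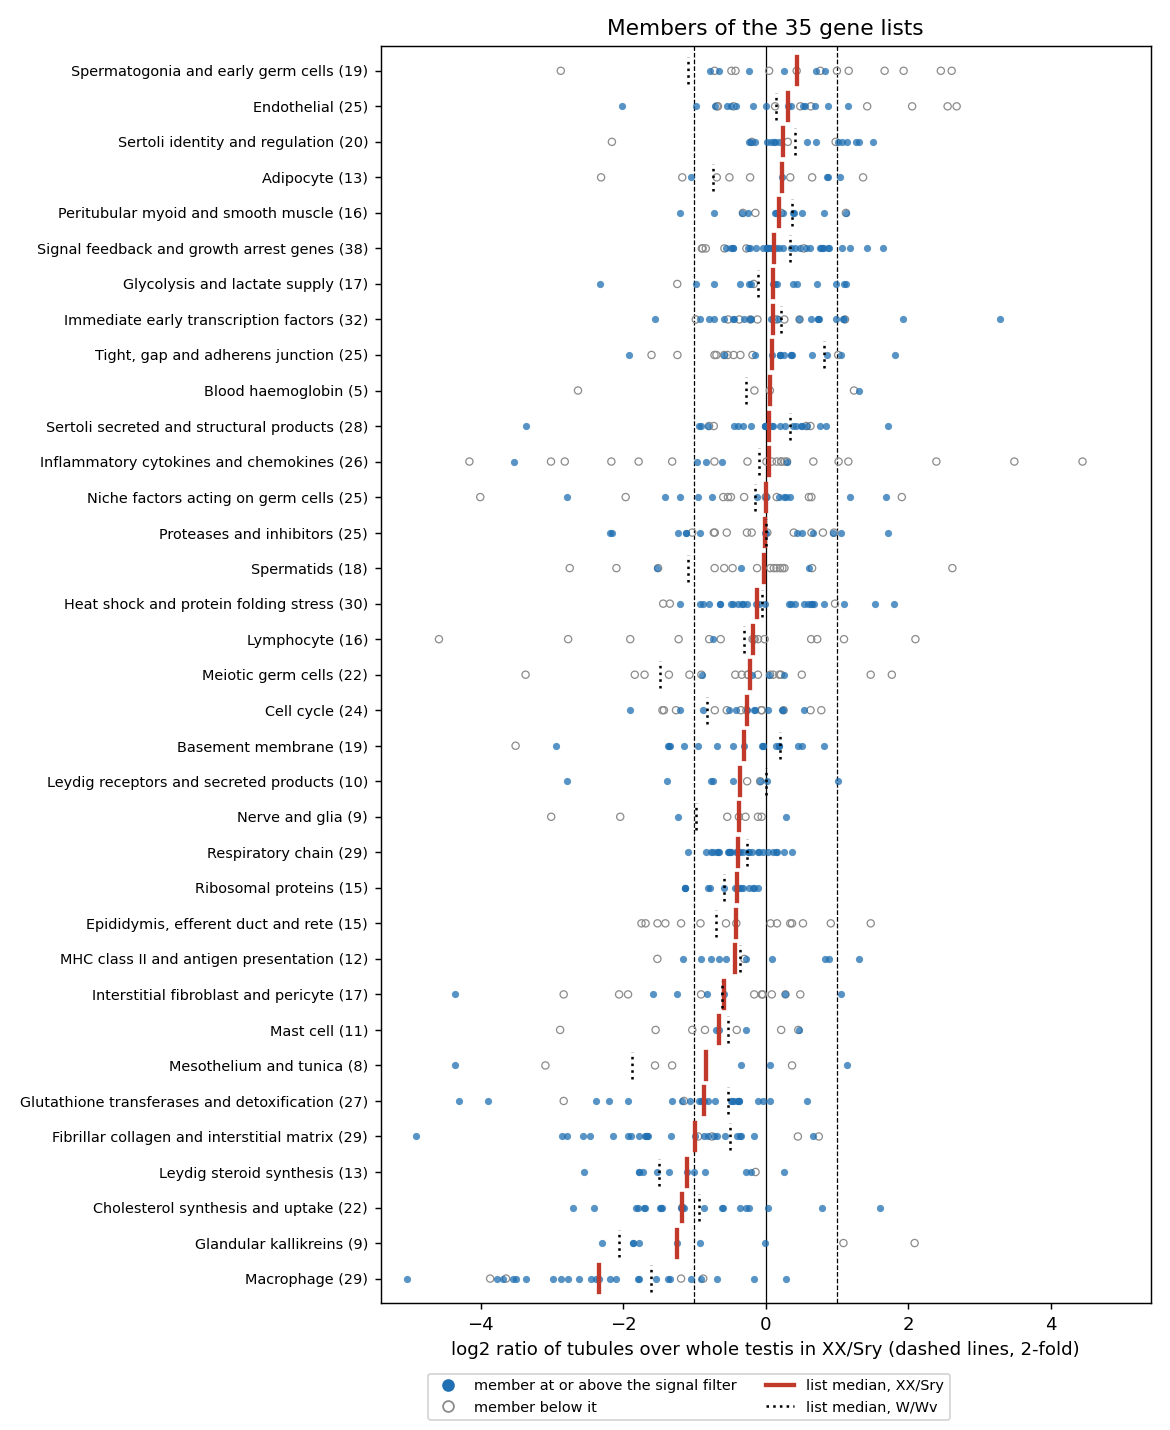
The log2 ratio of tubules over whole testis in XX/Sry for each measured member of the 35 gene lists, 1 point per gene, filled where the gene passed the signal filter. Red bars are list medians in XX/Sry, from -2.33 for macrophages to 0.43 for spermatogonia, and dotted bars the medians in W/Wv.

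Genes of the interstitial matrix were lower as well. Of 29 members 14 were at least 2-fold lower, 0 were higher and 26 had a ratio below 0, with a median of -0.996. Col3a1, a fibrillar collagen chain, had 846 in tubules and 5829 in whole testis, 6.89-fold lower, and its probe sets lay between -2.89 and -2.78. Dcn, a proteoglycan that binds collagen fibrils, had 2233 and 9835 and was 4.40-fold lower. Mfap4, a microfibril protein, had 9.2 and 275 and was at least 4.31-fold lower. Pcolce, which enhances collagen processing, was 1.75-fold lower (6205 and 10869.9).

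Sparc, a matrix protein that many cells secrete, was only 1.28-fold lower (16808 and 21569), and Fbln1 had the highest ratio of the kept members at 0.67 (324 and 204). Fibroblast and pericyte markers had a median of -0.58 over 17 members, with 4 lower and 1 higher. Dpt, a matrix protein of connective tissue, was at least 3.65-fold lower (11.4 and 233). Pdgfra, the growth factor receptor of interstitial mesenchyme, was 2.98-fold lower (847 and 2526), though its other probe set stood at 0.30. Tcf21, a transcription factor of the same cells, was 2.37-fold lower (865 and 2053), and Apod at least 2.14-fold. The higher member was Tbx18 (182 and 88, 2.08-fold). Rgs5, a marker of pericytes on small vessels, had 649 and 540 (log2 ratio 0.27).

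Basement membrane genes, whose products wrap the tubule and the vessels, split. Of 19 members 5 were lower and 0 higher, with a median of -0.30. The lower members were Lama4 (22.5 and 173, at least 2.71-fold, with another probe set at 1.75), Lama2 (448 and 1158, 2.59-fold), Nid2 (2.57-fold), Lama5 (2.54-fold) and Lamb1 (2.21-fold). Collagen IV and XVIII chains did not follow them: Col4a1 had 2567 and 2248 (log2 ratio 0.19) and Col18a1 had 1437 and 812 (0.82). Lama1, a laminin chain of epithelial basement membranes, had 1025 and 748 (0.45).

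Most vessel genes were not on the lower side. The 25 endothelial genes had a median of 0.32, with 4 higher and 1 lower, although their summed signal was lower in tubules (6593 and 9705). Vwf, the clotting factor carrier of endothelium, had 267 in tubules and 120 in whole testis and was 2.23-fold higher, and Flt1, Mcam and Plvap were at least 2.26-fold, 2.14-fold and 2.01-fold higher from whole testis signals below the bound; another probe set of Flt1 stood at -0.65. Cldn5, a tight junction protein of vessels, had 722 and 565 (log2 ratio 0.35) and Esam 445 and 276 (0.69). Cd34 went the opposite way at -0.71, and Cd36, a fatty acid receptor that macrophages, Leydig cells and fat cells also make, was 4.06-fold lower (1165 and 4735). The 3 probe sets of Cd36 lay between -2.02 and -1.44.

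Peritubular myoid genes differed little from whole testis. Of 16 members 1 was higher and 1 lower, with a median of 0.18. Acta2, the smooth muscle actin of the tubule wall, had 10566 and 7449, a log2 ratio of 0.50, though its other probe set stood at -1.51. Tpm2, a muscle tropomyosin, was the higher member (3463 and 1586, 2.18-fold), and Tpm1 was the lower (1077 and 2489, 2.31-fold). The 4 probe sets of Tpm2 ran from -0.22 to 1.13, and the 3 of Tpm1 from -1.21 to -0.24. Myl9, a myosin light chain, had -0.33 (6612 and 8297), and Mylk, the kinase that acts on it, had 0.15 (3839 and 3469). The 3 probe sets of Mylk reached down to -1.28.

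Sertoli cell genes of identity and regulation stood near or above equal signal. Of 20 members 6 were at least 2-fold higher and 0 lower by a measured fold or a bound, and the median was 0.25. After median centring it was 0.36, with the median over all genes at 0.10 rather than -0.02, so its place relative to all genes was unchanged. Inhbb on chromosome 1, the beta B chain of inhibin, had 5035 in tubules and 1767 in whole testis and was 2.85-fold higher, but its other probe set stood at -0.10. Inha, the chain that pairs with it, had 16363 and 14898 (log2 ratio 0.14). Aard, an abundant Sertoli transcript, had 16009.9 and 15836 (0.02), and Cited1, a transcriptional cofactor, had 6978 and 8242 (-0.24).

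The other higher members of that list, chosen after their values were seen, were transcription factors, nuclear receptors and a ligand. Gata6 was 2.47-fold higher (943 and 381), with a second probe set at 0.18. Dhh, the hedgehog ligand by which Sertoli cells signal to Leydig and peritubular cells, had 2947 and 1222 and was 2.41-fold higher, with a second probe set at 0.46. Wt1, a factor of Sertoli cells and also of the mesothelium, had 1776 and 807 and was 2.20-fold higher. Nr2c2 was 2.11-fold higher with 3 further probe sets down to 0.22, and Nr0b1 2.02-fold. For Inhbb, Gata6, Dhh and Nr2c2, the 4 of these genes with further probe sets, the others gave smaller ratios.

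Secreted and structural Sertoli products were close to equal on both arrays. Of 28 members 1 was higher and 1 lower, the median was 0.05, and the summed signal was 226852 in tubules and 228561 in whole testis. Clu, a secreted chaperone that is a main product of Sertoli cells, had 38329 and 35925 (1.07-fold), with 4 probe sets between -0.03 and 0.10. Ctsl, a protease, had 21400.1 and 21585 (1.01-fold), and Cst12, a cystatin, had 23382 and 17422 (log2 ratio 0.42). Aldh1a1, a retinoic acid enzyme that Leydig cells make as well, was 1.76-fold lower (14942 and 26292). Plat, tissue plasminogen activator, was the higher member with 2818 and 858, 3.29-fold. The lower member was Apoe on chromosome 7, a lipid carrier that macrophages and Leydig cells also make, with 1072 and 11041, 10.3-fold.

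Niche factors that act on germ cells were spread around a median of 0.00. By a measured fold or a bound 2 of 25 were higher and 3 lower. Gdnf, which keeps spermatogonial stem cells, had 159.9 in tubules and 49.4, below the bound, in whole testis and was at least 2.50-fold higher. Hbegf was 2.27-fold higher, with a second probe set at 0.36. Kitl, the Kit ligand of Sertoli cells, had 3852 and 3215 (log2 ratio 0.26), and Wnt6 had 857 and 855 (0.00). The lower members were Igf1, given above, Cxcl12 (1334 and 3541, 2.65-fold) and Bmp4 (120 and 277, 2.30-fold).

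Junction genes had a median of 0.09 over 25 members, with 2 higher and 1 lower. Cdh2, the N-cadherin of Sertoli cells, had 3533 and 999 and was 3.53-fold higher, with a second probe set at 0.88. Nectin2, an adhesion molecule by which Sertoli cells hold one another and spermatids, had 4333 and 2074 and was 2.09-fold higher. Cldn3, a tight junction claudin, was 3.78-fold lower (171 and 646), and its 4 probe sets ran from -3.28 to -0.90. Ctnnb1 (9636 and 8037), Ctnna1 (5822 and 4541) and Gja1 (6345 and 7019) differed by at most 1.28-fold.

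**Figure D3:**
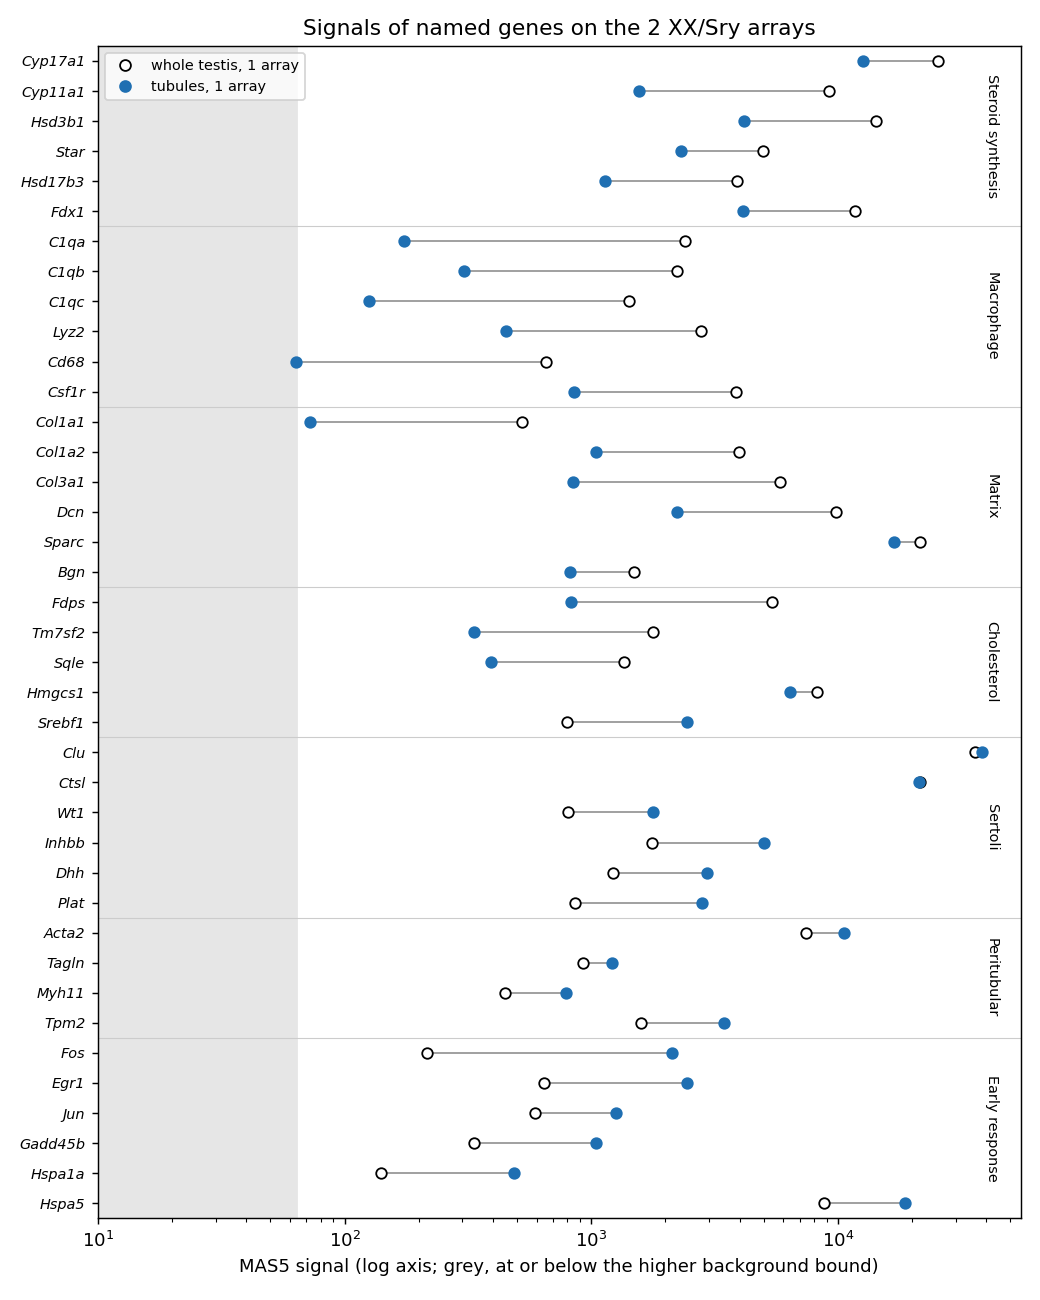
Signals of named genes on both XX/Sry arrays (log axis), open circles for whole testis and filled circles for tubules, 1 array each. The whole testis point lies to the right for the steroid, macrophage, matrix and cholesterol genes except Srebf1 (2436 in tubules, 799 in whole testis). The tubule point lies to the right for the other genes shown except Ctsl, whose points overlap. The genes shown were chosen from their lists. Members left out, such as Scarb1, Lgmn, Tpm1, Apoe and Cebpb, went the opposite way.

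Genes of cholesterol synthesis and uptake were lower in tubules. Of 22 members 13 were at least 2-fold lower and 1 was higher, 21 passed the signal filter, and the median was -1.17. Fdps on chromosome 3, which makes farnesyl diphosphate, had 831 in tubules and 5421 in whole testis and was 6.53-fold lower, although its dimmer probe set went to 3.56, so that the mean of both gave 0.43. Nsdhl, a late step of the path, had 1099.6 and 3895 and was 3.54-fold lower. Msmo1, a demethylase, was 1.83-fold lower (2442 and 4466), and Hmgcs1, at the start of the path, was 1.29-fold lower (6405 and 8253), with its 4 probe sets between -1.06 and -0.37. Among these 4 genes the difference was therefore smallest for Hmgcs1. Srebf1, a transcription factor of lipid synthesis, was the higher member with 2436 and 799, 3.05-fold.

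Detoxification genes followed the same side. Of 27 members 9 were lower and 0 higher, with a median of -0.86. Aldh1a1 and Cbr2 are given above. Gstm1 (13643 and 24826, 1.82-fold), Gstm2 (10549 and 17236, 1.63-fold) and Mgst1 (7959.9 and 15273, 1.92-fold) lay short of the threshold, and near-identical Gstm copies may share their probe sets. The other probe set of Mgst1 stood at -2.75. Cbr3 had the highest ratio at 0.59. The glandular kallikreins, serine proteases that Leydig cells make, had a median of -1.24 over 9 members with 5 lower: Klk1b24 had 3652 and 17868 (4.89-fold), Klk1b27 2408 and 8774 (3.64-fold), and Klk1b21 2837 and 9758 (3.44-fold). Klk1, the tissue kallikrein, had 389 and 390.5 on its brightest probe set, and its 3 probe sets reached up to 1.63. Klk1b1 was 3.62-fold and Klk1b16 2.37-fold lower, and since these genes are near-identical copies, their probe sets may report one another's transcripts.

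These lists lay on the same side. Beside the 13 lower cholesterol genes, 9 detoxification genes and 5 kallikreins, the steroid synthesis list was at -1.10, with a summed signal 2.29-fold higher in whole testis, and the macrophage list at -2.33; their part in the lower signals of the other lists was not tested.

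Early response genes showed a few large differences in a list that mostly did not differ. Of 32 immediate early transcription factors 4 were at least 2-fold higher and 1 was lower, with a median of 0.10. Fos on chromosome 12, part of the AP-1 factor that cells induce within minutes of a stimulus, had 2117 in tubules and 216.3 in whole testis and was 9.79-fold higher, the highest measured fold among kept genes on the higher side. Egr1, a zinc finger factor induced alongside it, had 2454 and 646 and was 3.80-fold higher. Atf3 (239 and 111) was 2.15-fold and Jun (1257 and 591) 2.13-fold higher. Cebpb, a factor of inflammatory and myeloid responses, was 2.95-fold lower (202 and 596). Klf9 (3284 and 3113) and Jund (2320.3 and 1402) had log2 ratios of 0.08 and 0.73.

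Feedback and growth arrest genes had a median of 0.12 over 38 members, with 4 higher and 0 lower. Gadd45b, a stress sensor, had 1048 and 336 and was 3.12-fold higher, though its 3 probe sets ran from -0.13 to 1.64. The others were the kinase gene Plk2 (575 and 214, 2.69-fold), the growth factor signal inhibitor Spry1 (795 and 349.7, 2.27-fold) and Gadd45a (569.7 and 271, 2.10-fold). Nfkbia (7669.8 and 5159), Rhob (5565 and 4194) and Ccn2 (3020 and 2363) had ratios between 0.35 and 0.57, and Tob1 had the lowest of the kept members at -0.56. Cytokines and chemokines lay near background: 10 of 26 were below the bound on both arrays, 0 were higher and 1, Ccl24, was at least 3.01-fold lower (16.6 and 192.5).

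Heat shock and protein folding genes split by member around a median of -0.12. Of 30 members 3 were higher and 1 lower. Hspa1a, an inducible HSP70 gene, had 487 and 140.3 and was 3.47-fold higher; its near-identical copy Hspa1b was 2.90-fold higher (1614 and 557), and the pair may share transcripts. Hspa5, the HSP70 of the endoplasmic reticulum, had 18767 and 8781 and was 2.14-fold higher, with a second probe set at -0.19. Hmox1, which breaks down heme, was the lower member (334 and 769.6, 2.30-fold). Hspa8, Hspb1 and Hsp90b1 had ratios of 0.36, 0.33 and 0.41. Outside the list Pdia4, a disulfide isomerase of the endoplasmic reticulum, had 2102 and 402 and was 5.23-fold higher, and its 2 probe sets stood at 0.85 and 2.39.

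Promoter windows of RefSeq (GRCm38.p6), the 250 bases before each start, were searched on both strands for 4 motifs known from such genes. The endoplasmic reticulum stress response element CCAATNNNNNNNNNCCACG was held by 2 of the 27 heat shock and folding genes with a window, Hspa5 and Hsp90b1, and by 0.13% of 27025 genes. Both windows are shown because the element marks the chaperone genes of that compartment, with its matches in capitals.
Hspa5, chr2:34771840-34772089, plus strand: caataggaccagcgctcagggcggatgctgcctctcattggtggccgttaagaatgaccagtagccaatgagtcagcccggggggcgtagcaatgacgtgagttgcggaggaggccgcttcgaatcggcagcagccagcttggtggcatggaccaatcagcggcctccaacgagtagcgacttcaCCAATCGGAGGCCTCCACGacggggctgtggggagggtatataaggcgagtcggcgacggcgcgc
Hsp90b1, chr10:86705445-86705694, minus strand: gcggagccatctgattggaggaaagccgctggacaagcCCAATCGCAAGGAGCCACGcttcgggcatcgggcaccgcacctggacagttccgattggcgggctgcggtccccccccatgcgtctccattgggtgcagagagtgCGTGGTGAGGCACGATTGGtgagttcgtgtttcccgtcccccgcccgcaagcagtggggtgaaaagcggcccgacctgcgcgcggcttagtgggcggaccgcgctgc
In Hspa5, which was 2.14-fold higher in tubules, the match began 65 bases before the start; in Hsp90b1, which was 1.33-fold higher (11619.8 and 8736), there were 2 matches, at 212 and 107 bases. The cyclic AMP response element TGACGTCA was held by 1 of 24 immediate early genes (Maff, below the bound on both arrays) and 1.77% of all. The sterol element TCACCCCAC was held by 1 of 18 cholesterol genes (Hmgcs1) and 0.555% of all, and the SF-1 motif AAGGTCA by 1 of 8 steroid synthesis genes (Sult1e1, 1.81-fold lower) and 4.7% of all. A match describes these letters only and is no site or cause.

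Respiratory chain and ribosomal protein genes leaned to the lower side, and glycolysis genes went both ways. At least 2-fold lower were 20% of the ribosomal protein genes, against 5.84% of all genes and 8.27% of kept genes. The share of kept genes is the closer background here, since all 15 ribosomal protein genes passed the signal filter. Respiratory chain genes had a median of -0.39 over 29 members, 1 of them lower (Cox8a, 1057 and 2253, 2.13-fold), and ribosomal protein genes -0.40 over 15, with 3 lower (Rps15, Rpl37 and Rps9, at 2.20, 2.20 and 2.18-fold) and all 15 ratios below 0 in the deposited signals. Glycolysis genes had a median of 0.11, with 2 of 17 higher and 2 lower. Pgk1, a step that yields ATP, had 4326 and 1983 and was 2.18-fold higher, and the glucose transporter gene Slc2a1 was 2.15-fold higher (1480.3 and 689.5). The 3 probe sets of Pgk1 ran from 0.02 to 1.13. Aldoc, an aldolase, was 5.02-fold lower (429 and 2152), and the lactate exporter gene Slc16a3 2.36-fold lower (65.3 and 154). Ldhb, the lactate dehydrogenase chain abundant in Sertoli cells, had 14185 and 13152 (log2 ratio 0.11).

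Proteases and inhibitors held 2 higher and 6 lower genes of 25, with a median of -0.01. The higher ones were Plat and Timp3 (2556 and 1225, 2.09-fold). Serpinf1, an antiangiogenic serpin, had 415 and 1895 and was 4.56-fold lower, Htra1 had 982 and 4367 and was 4.45-fold lower, and Cst3, a cystatin rich in macrophages, had 7066 and 15328 and was 2.17-fold lower. Timp2 was nearly equal on both arrays by its brightest probe set (12246 and 12301), but its 6 probe sets ran from -1.70 to 0.72.

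Markers of other cells that the samples could hold were mostly near background. Of 15 epididymis and efferent duct genes 0 passed the signal filter, and the summed signal was 745.5 in tubules and 846.4 in whole testis. Meiotic genes had 13 of 22 and spermatid genes 9 of 18 members below the bound on both arrays. Haemoglobin genes Hba-a1 and Hba-a2 lay below it as well on the probe sets used. The beta chain gene Hbb-b2 had 17.9 and 111.1 (at least 1.74-fold lower, with near-identical copies). Alas2, the heme enzyme of red cell precursors, had 731 and 294 (2.49-fold higher). Only 5 of the 8 symbols on the haemoglobin list were measured. Probe sets with several gene symbols were left out, so these values do not give the total haemoglobin RNA. Mesothelium and tunica genes had a median of -0.83 over 8 members with 1 lower, Dpt, and 1 higher, Wt1, both given above on other lists. The bright members Efemp1 (923 and 1175, 1.27-fold lower) and Aldh1a2 (291 and 278, log2 ratio 0.07) differed little. The mesothelial gene Upk3b, chosen after its values were seen, had 14.2, below the bound, and 121 (at least 1.89-fold lower). Cell cycle genes had a median of -0.26, with 2 of 24 lower (Rrm2, 73 and 272, 3.72-fold, and Cdc20, 2.29-fold).

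The 15 kept genes with the highest ratios were Lrrn1, Wnt4, Ly6h, Cysrt1, Fos, Gpsm2, Farp1, Slc17a9, Sema4g, Hid1, Wfdc18, Scin, Aplp1, Pkp2 and Pdia4. For 10 of them the whole testis signal lay below the bound, so that the fold is between at least 2.62-fold and at least 4.39-fold and their order is not fixed. Wnt4, a signal of the developing ovary and kidney, had 229 in tubules and 12.3 in whole testis, at least 3.58-fold higher. Wfdc18, a small secreted protein, had 2472 and 417 and was 5.93-fold higher. Aplp1, of the amyloid precursor family, had 2843 and 499.9 and was 5.69-fold higher, with its second probe set at 1.45. Pkp2, a desmosome protein, was 5.66-fold higher by 1 probe set (519 and 91.7), while the others went down to -1.75. With signals under the bound set to it, 7 of these 15 and 6 of the 15 lowest stayed among the 15.

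W/Wv tubules and whole testis, prepared in the same way, gave the context. Over the 6898 genes kept in both genotypes the log2 ratios had a Pearson correlation of 0.498 and a Spearman correlation of 0.425 across genes, which are not independent replicates; the ratios share no array but share probe sets. In XX/Sry 4.73% of these genes were higher and 7.49% lower, and in W/Wv 5.33% and 7.61%. Of the 517 lower genes in XX/Sry, 236 (45.6%) were also lower among the 525 in W/Wv (45.0%), and 3 were 2-fold higher there. Of the 326 higher genes 57 (17.5%) were also higher among 368 in W/Wv (15.5%), and 7 were lower there.

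Over the 376 and 604 called genes without that second filter, the median log2 ratio in W/Wv was 0.42 on the higher side and -0.87 on the lower side. For some of the lists the W/Wv median follows that of XX/Sry. Steroid synthesis genes had medians of -1.10 and -1.50, macrophage genes -2.33 and -1.61, matrix genes -0.996 and -0.50, cholesterol synthesis genes -1.17 and -0.94, and kallikreins -1.24 and -2.05. Detoxification genes had -0.86 and -0.53, Sertoli identity genes 0.25 and 0.41, and endothelial genes 0.32 and 0.15. Basement membrane genes had -0.30 and 0.20, junction genes 0.09 and 0.82, and Sertoli products 0.05 and 0.35. Cyp11a1 was 5.08-fold lower in W/Wv (1172 and 5952), C1qa 3.05-fold lower (455 and 1386), and Fos 18.6-fold higher (5265 and 283). With 1 array per group none of these differences between genotypes was tested.

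**Figure D4:**
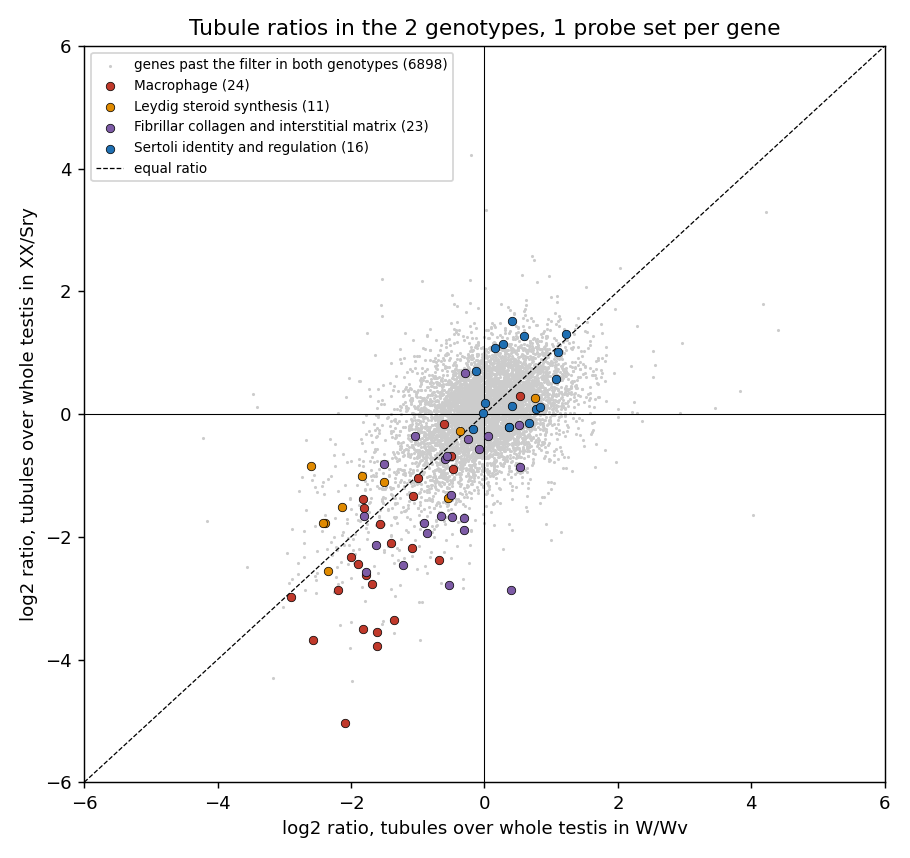
The log2 ratio of tubules over whole testis in XX/Sry (vertical) against W/Wv (horizontal), 1 point per gene for 6898 genes past the signal filter in both. Macrophage and steroid synthesis genes lie to the lower left except for a few near or above 0, and several matrix genes lie below the line of equal ratio.

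Some genes stood apart between the genotypes. At least a 4-fold double ratio (the XX/Sry ratio over the W/Wv ratio), with 2-fold in XX/Sry, was seen for 53 genes, 39 of them above the bound on all 4 arrays; of these 15 were higher and 24 lower in XX/Sry tubules. The largest double ratio of these 39 was that of the ribosomal protein gene Rpl41. It had 7584 in tubules and 23762 in whole testis in XX/Sry, 3.13-fold lower. In W/Wv it had 16005 and 978, 16.4-fold higher. Its signal on the W/Wv whole testis array thus stood far below those on the other arrays, so 1 array can set such a double ratio. The genes named next were chosen after their values were seen. Col1a1, the main fibrillar collagen chain, had 72.4 in tubules and 525 in whole testis in XX/Sry, 7.26-fold lower, against 260 and 197 in W/Wv, 1.32-fold higher. Lifr, the receptor of leukemia inhibitory factor, had 1273 and 5307, 4.17-fold lower, against 3442 and 1729.6, 1.99-fold higher. Cldn3 was 2.21-fold higher in W/Wv (777 and 351). In the opposite way, Cntd1, a meiotic cyclin-like gene, had 4659 and 1357, 3.43-fold higher, against 2089 and 6098, 2.92-fold lower, and the actin-binding Tmsb10 was 2.10-fold higher (13609.8 and 6492) against 2.41-fold lower (1827 and 4400), with its 5 probe sets down to -1.05 in XX/Sry.

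A limma model with additive terms for genotype and preparation on all 4 arrays (Benjamini-Hochberg adjustment over 22626 probe sets) leaves 1 residual degree of freedom and takes any difference between the genotypes' ratios as error. At an adjusted p under 0.05, 54 probe sets were higher in tubules (0.239%) and 221 lower (0.977%), and without a trend in its variance prior 0 and 0 were, with 478 and 1483 at an unadjusted p under 0.05. No gene is called here on that fit.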

How the data were processed

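RNA of XX/Sry and W/Wv whole testis and tubules was hybridised to Affymetrix MOE 430A arrays for 16 h, 1 array per group. The deposited values are linear signal intensities that the authors computed with Microarray Suite 5.0 (MAS5), per the labels and the submitters' processing notes; trimmed array means near 500.2 show a common scaling. Detection calls were not used here, since the deposited table holds signals only.

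Of 22690 probe sets, 64 controls were set aside. Of the other 22626, 20380 had 1 gene symbol in the platform annotation, 691 several and 1555 none; 20351 were matched to RefSeq. A gene was given by the probe set with the highest mean log2 signal on the XX/Sry arrays. Log2 ratios were computed with Python 3.11.15, numpy 2.4.6 and pandas 2.3.3, and the additive fit with R 4.3.3 and limma 3.58.1, tested on simulated data. Named genes were the 15 highest and 15 lowest kept ratios and, per list, the 4 brightest members and the kept members with the highest and lowest ratio; others complete a short count or are said to be chosen by their values. The members and lists were chosen with earlier results of these data known. Median centring, quantile normalisation, a constant of 50 added before the ratio, signals set to the background bound, other filters and the mean over probe sets were tried as alternatives.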

Additional observations from a re-analysis of the deposited data

Results flagged for a closer look

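The list of spermatogonia and early germ cell genes had a median log2 ratio of 0.43 in XX/Sry tubules over whole testis and of -1.09 in W/Wv. It was picked out because the list lay on opposite sides in the genotypes. Opposite signs were not particular to germ cell genes. Adipocyte genes had medians of 0.22 in XX/Sry and -0.74 in W/Wv, and basement membrane genes -0.30 and 0.20. Some further lists with medians nearer to 0 also changed sign. The low W/Wv median was not particular to the spermatogonia list either. Meiotic genes had -0.22 in XX/Sry and -1.49 in W/Wv, and spermatid genes -0.03 and -1.09. With 1 array per group none of these differences was tested. In XX/Sry 8 of its 19 members lay below the background bound on both arrays and 6 passed the signal filter; 1 was at least 2-fold higher by a measured fold or a bound, Tdrd1 (135 and 60.2), and 0 were lower. Members above background in XX/Sry included Uchl1 (973 in tubules and 595 in whole testis), Id4 (478 and 269), Kit (569 and 892.5) and Dazl (433 and 509.6). The germ cell helicase gene Ddx4, a defining marker, had signals of 1.8 in tubules and 0.9 in whole testis in XX/Sry, both below background, and of 69.2 and 304.8 in W/Wv.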

How the results depend on the processing

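With a constant of 50 added to every signal, 430 probe sets were at least 2-fold higher and the macrophage median was -1.70. With no filter on signal, 2327 probe sets were higher and 3374 lower, and 1128 genes higher and 1712 lower. In the additive limma fit at an adjusted p under 0.05, quantile normalisation gave 86 higher and 265 lower probe sets, and median centring 72 and 128. Leaving out the trend gave 0 higher and 0 lower (478 and 1483 at an unadjusted p under 0.05). The sign turned for Hba-a1 with signals set to the bound (-0.067) and for Fdps with the mean of all probe sets (0.43). The Hba-a1 value is only the log2 ratio of both bounds, since both of its signals lay below them. Of 175 list medians recomputed, 172 moved by less than 0.50, the SD between probe sets of 1 gene, and so did 869 of 960 ratios of named genes. Part of this was fixed in advance. Median centring adds 0.11 to every ratio, so none could move by 0.50 in that setting. A ratio of signals above the bound could not move when signals were set to it. The additive fit averages the difference between preparations over both genotypes and is the only fit with a residual degree of freedom. With 1 array per group no array could be left out, and a difference near background was not measurable. On the XX/Sry arrays 69.8% and 71.4% of probe sets lay above the bound.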
